A study of Mus musculus with 9 samples.

Results

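Gata1, Gata2 and Zfpm1 were followed through estradiol-induced maturation of a mouse red cell progenitor line by PRO-seq, which counts nascent RNA held by engaged RNA polymerase. The members are the 3 gene bodies of that name, out of 24391 in the deposited gene table, and the 56 dREG elements, out of 42114, whose overlapping or regulatory gene is given as one of them. dREG marks places where polymerase initiates, at promoters and enhancers, and an element here is a whole dREG peak or 1 strand of it as the authors listed it. Gata1 has 13 elements, Gata2 has 12 and Zfpm1 has 31, from 34 of 26991 peaks in all. The assignment of an element to a gene is the authors', most distal elements carry a second gene's name as well (Glod5 or Hdac6 beside Gata1, Mir6376 or Dnajb8 beside Gata2, Mir7237 or Trhr2 beside Zfpm1), and whether an element regulates the gene was not tested.

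GATA1 and GATA2 are zinc finger transcription factors that bind the same short DNA motif. GATA2 maintains blood stem cells and progenitors, and during red cell maturation GATA1 takes its place on shared sites, including sites at the Gata2 gene itself, an exchange known as the GATA switch. FOG1, the product of Zfpm1, does not need to touch DNA: it binds the amino-terminal zinc finger of GATA1 and brings in the NuRD and CtBP corepressors, and loss of either FOG1 or GATA1 blocks red cell maturation in the mouse.

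Libraries came from 4 groups: 3 of G1E-ER4 cells without estradiol (0 h), 2 of G1E-ER4 cells given 100 nM estradiol for 13 h, 2 given it for 24 h, and 2 of untreated G1E cells. G1E cells lack working GATA1. G1E-ER4 cells are G1E cells that carry GATA1 fused to the ligand-binding domain of the estrogen receptor, so all 4 groups lack a working native GATA1 and only estradiol-treated G1E-ER4 cells hold the activated fusion. All cells grew with erythropoietin and kit ligand. Nothing in the labels says that replicates were separate cultures, so p-values measure the spread between these libraries only. Gene-body reads summed to between 37830789 and 139945759 per library and element reads to between 15394427 and 59952454. As a check of the labelled cell type, Klf1, the red cell transcription factor, had 27.8, 35.5 and 36.9 CPM (read counts scaled to library size) at 0 h, 56.3 and 70.1 CPM at 13 h, 69.3 and 62.2 CPM at 24 h, and 34.9 and 24.0 CPM in G1E. Alas2, the first enzyme of red cell haem synthesis, had 0.655, 1.28 and 0.777 CPM at 0 h, 172 and 92.3 CPM at 13 h, 464 and 699 CPM at 24 h, and 3.26 and 0.918 CPM in G1E. The globin gene Hbb-b1 had 0.0252, 0 and 0.0893 CPM at 0 h, 0.867 and 0.443 CPM at 13 h, 4.69 and 10.1 CPM at 24 h, and 0 CPM in both G1E libraries. Klf1 was thus read in every library, while Alas2 was near 0 in the libraries without estradiol.

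The gene starts, as the authors' peak table lists them in build mm9, lie at chromosome X position 7545036 on the minus strand for Gata1, at chromosome 6 position 88148658 on the plus strand for Gata2, and at chromosome 8 position 124806041 on the plus strand for Zfpm1. Promoter sequences are shown because elements at all 3 starts were measured and changed in different directions. They are RefSeq's, of build GRCm38.p6, with 250 bases before and 50 after a start, in the direction of the gene. Capitals mark the GATA core (GATA), the CACCC box bound by KLF factors (CCACCC) and the GC box (GGGCGG), searched on both strands. Gata2 has 2 starts, of which the second is 4773 bases downstream of the first.
Gata1, chrX:7967861-7968160, minus strand: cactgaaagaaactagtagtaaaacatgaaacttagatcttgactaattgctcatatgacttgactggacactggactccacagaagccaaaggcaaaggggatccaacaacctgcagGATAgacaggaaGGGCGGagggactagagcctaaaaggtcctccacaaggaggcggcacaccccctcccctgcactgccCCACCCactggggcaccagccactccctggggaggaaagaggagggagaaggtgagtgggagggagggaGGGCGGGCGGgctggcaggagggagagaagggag
Gata2 first start, chr6:88193641-88193940, plus strand: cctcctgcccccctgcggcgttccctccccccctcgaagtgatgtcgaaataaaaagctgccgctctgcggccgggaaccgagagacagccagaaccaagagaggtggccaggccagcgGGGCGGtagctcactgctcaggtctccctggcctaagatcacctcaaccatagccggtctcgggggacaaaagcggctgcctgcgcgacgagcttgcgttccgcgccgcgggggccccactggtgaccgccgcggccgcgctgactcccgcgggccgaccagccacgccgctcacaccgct
Gata2 second start, chr6:88198414-88198713, plus strand: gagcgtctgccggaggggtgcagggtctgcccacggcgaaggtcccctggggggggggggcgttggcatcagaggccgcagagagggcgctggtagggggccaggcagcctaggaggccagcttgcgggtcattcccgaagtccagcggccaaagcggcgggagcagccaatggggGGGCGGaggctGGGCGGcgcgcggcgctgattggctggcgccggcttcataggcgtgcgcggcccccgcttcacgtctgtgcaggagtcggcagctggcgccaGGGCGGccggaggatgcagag
Zfpm1, chr8:122281891-122282190, plus strand: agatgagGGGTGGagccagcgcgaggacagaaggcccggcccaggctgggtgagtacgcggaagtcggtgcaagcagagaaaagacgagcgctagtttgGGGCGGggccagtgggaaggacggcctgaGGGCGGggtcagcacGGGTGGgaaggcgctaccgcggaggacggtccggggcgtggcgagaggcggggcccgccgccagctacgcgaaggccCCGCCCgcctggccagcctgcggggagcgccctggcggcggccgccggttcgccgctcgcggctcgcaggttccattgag
The GATA core occurs 1 time in the Gata1 window and in no other of the 4, whereas 57.9% of 32851 RefSeq promoter windows hold it. The GATA box, searched as the core with A or T before it and A or G after it, occurs in 29.8% of windows and in none of these 4. A CACCC box occurs 1 time at Gata1 and 2 times at Zfpm1, and 31.5% of windows hold one. The GC box occurs 3 times at Gata1 (of which 2 overlap), 1 time at the first and 3 times at the second start of Gata2, and 3 times at Zfpm1, against 35.7% of windows with at least 1. An E box, searched as CANCTG with any base but A at N, occurs 1 time, at the second start of Gata2, and 44.3% of windows hold one. These matches describe letters in the windows, and the deposited distal elements lie outside them. Their mm9 coordinates were not read against this build.

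Gata1 nascent transcription stayed between 164 and 301 CPM across the 9 libraries. Its gene body gave 257, 188 and 198 CPM at 0 h, 280.1 and 214 CPM at 13 h, 301 and 301 CPM at 24 h, and 214 and 164 CPM in G1E. The 24 h libraries lay above all others, while 13 h overlapped 0 h, and 0 h overlapped G1E. At 24 h it was 1.40-fold higher than at 0 h (log2 0.49 ± 0.18 SE, edgeR adjusted p = 0.0349), a call lost when replicate 2 or 3 of 0 h, or either library of 24 h, was left out (adjusted p up to 0.109). Scaling by library totals, which moved the median of all genes from -0.07 to -0.45, put Gata1 at 0.093 (adjusted p = 0.677). At 13 h the difference from 0 h was 0.20 ± 0.18 (adjusted p = 0.384), and at 0 h the difference from G1E was 0.18 ± 0.18 (adjusted p = 0.565). Reads from the GATA1 fusion transgene and from the native gene cannot be told apart in these counts.

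Gata2 transcription fell after estradiol. The gene body gave 131, 147 and 185 CPM at 0 h, 20.8 and 36.7 CPM at 13 h, 35.4 and 12.2 CPM at 24 h, and 308 and 147 CPM in G1E. Every estradiol library lay below every library without estradiol, and the pairs of libraries within 24 h and within G1E differed widely. Relative to 0 h the fall was 5.37-fold at 13 h (log2 -2.42 ± 0.48, adjusted p = 0.00289) and 6.49-fold at 24 h (-2.70 ± 0.49, adjusted p = 0.000854). The 24 h value was -3.67 without 24 h replicate 1 and -2.11 without 24 h replicate 2, and both were called. Neither the step between 13 h and 24 h (-0.27 ± 0.48, adjusted p = 0.711) nor the difference of 0 h from G1E (-0.56 ± 0.43, adjusted p = 0.448) passed the test. In pooled cells, fewer cells that transcribe a gene and less transcription per cell cannot be told apart.

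Zfpm1 transcription rose after estradiol. Its gene body gave 228, 315 and 353 CPM at 0 h, 2340.2 and 2196 CPM at 13 h, 3274 and 2748 CPM at 24 h, and 1374 and 484 CPM in G1E. The 4 groups did not overlap, and the G1E libraries lay farthest apart. Relative to 0 h the rise was 7.59-fold at 13 h (2.92 ± 0.35, adjusted p = 0.000172) and 10.1-fold at 24 h (3.33 ± 0.36, adjusted p = 2.78e-05), and the step between 13 h and 24 h was not called (0.41 ± 0.38, adjusted p = 0.465). Before estradiol, Zfpm1 was the one member of the 3 called between the lines: it was 3.11-fold lower at 0 h than in G1E (-1.64 ± 0.34, adjusted p = 0.00873), but the call was lost without the expression filter (-1.61, adjusted p = 0.104), and without G1E replicate 1 the difference was -0.69 (adjusted p = 0.0961). Of all 13825 genes tested, 41% were called at 13 h relative to 0 h (20.1% higher, 20.9% lower) and 59.7% at 24 h (29% higher, 30.7% lower). Between 24 h and 13 h 24.2% were called (11.7% higher, 12.5% lower), and between 0 h and G1E 17.5% (7.88% higher, 9.58% lower).

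**Figure D1:**
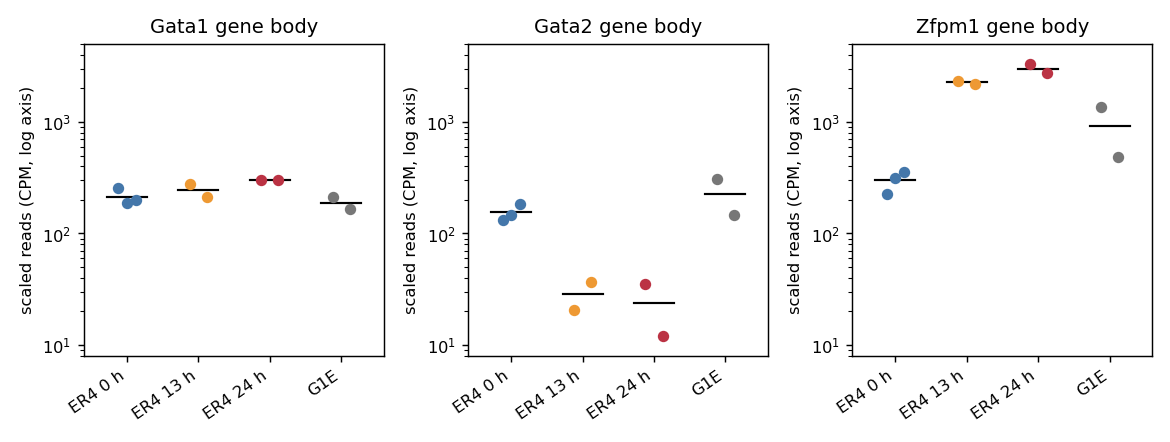
Scaled gene-body reads (CPM, log axis) of Gata1, Gata2 and Zfpm1 in each library of G1E-ER4 at 0 h, 13 h and 24 h of estradiol and of G1E, with points for libraries and bars for group means. Gata2 sits between 12.2 and 36.7 CPM in the estradiol libraries, below all others, Zfpm1 sits between 2196 and 3274 CPM, above all others, and Gata1 spans 164 to 301 CPM.

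The balance between the GATA genes was read as Gata2 reads per Gata1 read within a library, a ratio that no scaling of libraries alters and that is not per length. It was 0.509, 0.779 and 0.936 at 0 h, 0.0743 and 0.171 at 13 h, 0.118 and 0.0404 at 24 h, and 1.44 and 0.891 in G1E. All estradiol libraries lay below all libraries without estradiol. Its geometric mean was 6.38-fold lower at 13 h than at 0 h and 10.4-fold lower at 24 h than at 0 h, each with a two-sided exact permutation p = 0.1, which is the smallest that 2 against 3 libraries allow. Without 24 h replicate 1 or 24 h replicate 2 the 24 h fall was 17.8-fold or 6.10-fold, and without 13 h replicate 1 or 13 h replicate 2 the 13 h fall was 4.20-fold or 9.68-fold. The ratio at 24 h over that at 13 h (log2 -0.71, exact p = 0.667, smallest possible 0.333) and that at 0 h over G1E (-0.66, exact p = 0.3) were within the spread of the libraries.

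All 13 Gata1 elements and all 12 Gata2 elements passed the filter on low counts, as did 27 of the 31 Zfpm1 elements. The 4 that did not pass lie upstream of Zfpm1 and had at most 0.662 CPM in any library. Of the 52 tested elements, 24 were higher and 10 lower at 13 h than at 0 h, and 28 were higher and 13 lower at 24 h than at 0 h. The background over 35158 tested elements was 33.8% called at 13 h (15.2% higher, 18.6% lower) and 52.2% at 24 h (22.7% higher, 29.5% lower). Both comparisons use the same 0 h libraries. Between 13 h and 24 h, 3 elements were higher and 3 lower at 24 h, where 13.1% of all elements were called (5.28% higher, 7.82% lower). At 0 h relative to G1E 3 were higher and 16 lower, against 19.3% of all elements (7.18% higher, 12.1% lower), but without G1E replicate 1 only 2 were called lower and 1 higher. Single-strand elements of a peak, and elements inside a gene and its gene body, share sequence or reads, so these counts are not over independent units.

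The 12 Gata2 elements gave 0 higher and 8 lower at 13 h and 0 higher and 9 lower at 24 h. Over all tested elements 18.6% were lower at 13 h and 29.5% at 24 h. The median log2 changes of the Gata2 elements were -1.32 and -2.42, beside -0.13 and -0.18 over all elements. The gene-strand element at the start was read at 134, 189 and 190 CPM at 0 h, 43.5 and 81.1 CPM at 13 h, 55.7 and 30.9 CPM at 24 h, and 243 and 124 CPM in G1E. It fell at 13 h (-1.46 ± 0.36, adjusted p = 0.00907) and at 24 h (-1.98 ± 0.37, adjusted p = 0.000936), the 13 h call being lost without 13 h replicate 1 and with replicate number as a block. Its opposite-strand partner fell at 13 h (-1.14 ± 0.27, a call lost without 13 h replicate 2) and was at -0.58 ± 0.27 at 24 h, which did not pass the test (adjusted p = 0.079). The gene body fell by -2.42 and -2.70 at the same times, and the difference between start and body was not tested. Start reads per gene-body read were 0.482, 0.536 and 0.373 at 0 h, 0.982 and 1.08 at 13 h, 0.788 and 1.02 at 24 h, and 0.353 and 0.308 in G1E. Every estradiol library was above every other on this measure, which is given with no test because the counts come from separate tables and may share reads.

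Inside Gata2, the gene-strand element at chr6:88151350-88157701 fell at 13 h (-3.01 ± 0.51) and at 24 h (-3.19 ± 0.51), and the opposite strand of the same peak fell as well (-1.81 ± 0.47 and -2.48 ± 0.49, the 13 h call being lost without 13 h replicate 2). On the gene strand the 24 h change was -4.04 without 24 h replicate 1 and -2.49 without 24 h replicate 2, both called. The gene-strand element gave 351, 489 and 760 CPM at 0 h, 46.2 and 86.5 CPM at 13 h, 84.8 and 32.3 CPM at 24 h, and 867 and 528 CPM in G1E. It held between 104% and 149% as many reads as the gene-body count of the same library, so it is no independent measure of the gene. The authors' gene-body count therefore leaves out part of the reads that the element holds.

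Upstream of Gata2 the elements split by distance and strand. The whole peak 5.4 kb upstream, at chr6:88141800-88144751, was read at 114, 120 and 147 CPM at 0 h, 57.4 and 56.5 CPM at 13 h, 63.7 and 46.8 CPM at 24 h, and 120 and 101 CPM in G1E. It spans -6.9 to -3.9 kb from the listed start in mm9, and in GRCm38.p6 the other RefSeq start lies 4773 bases upstream, but the builds were not aligned. The element fell 2.24-fold at 13 h (-1.16 ± 0.20, adjusted p = 0.000735) and 2.30-fold at 24 h (-1.20 ± 0.20, adjusted p = 0.000272). Its difference between 24 h and 13 h did not pass the test (-0.04 ± 0.22, adjusted p = 0.928). At the peak 8.6 kb upstream both strands were called lower at 24 h. The opposite strand was also called at 13 h (-1.87 ± 0.24, adjusted p = 6.25e-05). The gene strand, at 22.5, 32.5 and 28.1 CPM at 0 h, 10.3 and 26.9 CPM at 13 h and 6.36 and 2.92 CPM at 24 h, was not called at 13 h (-0.57 ± 0.39, adjusted p = 0.281) and fell at 24 h relative to 0 h (-2.57 ± 0.43, adjusted p = 0.0003; -3.24 to -1.97 with single 24 h libraries left out). The difference between the strands' changes was not tested.

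The peak 53.5 kb upstream of Gata2, at chr6:88094250-88096001, lost nearly all of its reads. Its opposite strand was read at 11.4, 14.6 and 22.7 CPM at 0 h, 0.375 and 0.647 CPM at 13 h, 0.454 and 0.558 CPM at 24 h, and 8.87 and 15.1 CPM in G1E. That is a 31.2-fold fall at 13 h (-4.97 ± 0.46, adjusted p = 5.08e-06) and a 32.0-fold fall at 24 h (-5.00 ± 0.47, adjusted p = 2.01e-06). The gene body fell 5.37-fold and 6.49-fold, and the difference between element and body was not tested. Its gene strand kept 2.02 and 1.70 CPM at 13 h beside 3.21, 2.92 and 6.58 CPM at 0 h (-1.19 ± 0.48, adjusted p = 0.0706). At 24 h that strand was at 0.187 and 0.248 CPM (-4.27 ± 0.61 from 0 h, adjusted p = 6.37e-05). With title number as a block the 24 h change was -4.91. Title number here is the number that opens a library's title, taken without its last digit. Farther out, 74.5 kb upstream, the opposite strand held 2 reads in both 24 h libraries together against 170 reads at 0 h, a ratio 48.3-fold lower with a 95% counting interval of 13.2 to 402. It had fallen at 13 h too (-3.80 ± 0.82, adjusted p = 0.00294), and the gene strand there was at -1.03 ± 0.76 and -2.01 ± 0.86, neither of which passed the test.

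The most distal Gata2 element, a whole peak 81.9 kb upstream at chr6:88065300-88068201, had the one positive change of the locus at 13 h, and it was singled out after its values were seen. Like the gene strand 74.5 kb upstream, it was called at neither time. It was read at 30.1, 17.9 and 19.3 CPM at 0 h, 31.3 and 26.4 CPM at 13 h, 17.96 and 15.1 CPM at 24 h, and 12.9 and 8.81 CPM in G1E. The 13 h libraries overlapped 0 h, and the change was 0.36 ± 0.27 at 13 h (adjusted p = 0.33) and -0.44 ± 0.28 at 24 h (adjusted p = 0.199), while the gene fell. Per read at the Gata2 start it gave 0.224, 0.0947 and 0.102 reads at 0 h, 0.720 and 0.325 at 13 h, 0.323 and 0.489 at 24 h, and 0.0531 and 0.0712 in G1E, so all estradiol libraries were above all others. It was also the one Gata2 element called between 0 h and G1E (1.04 ± 0.29 higher at 0 h, adjusted p = 0.0202), a call lost without 0 h replicate 1, G1E replicate 1 or G1E replicate 2. It was also lost with gene-body scaling and with title number as a block.

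**Figure D2:**
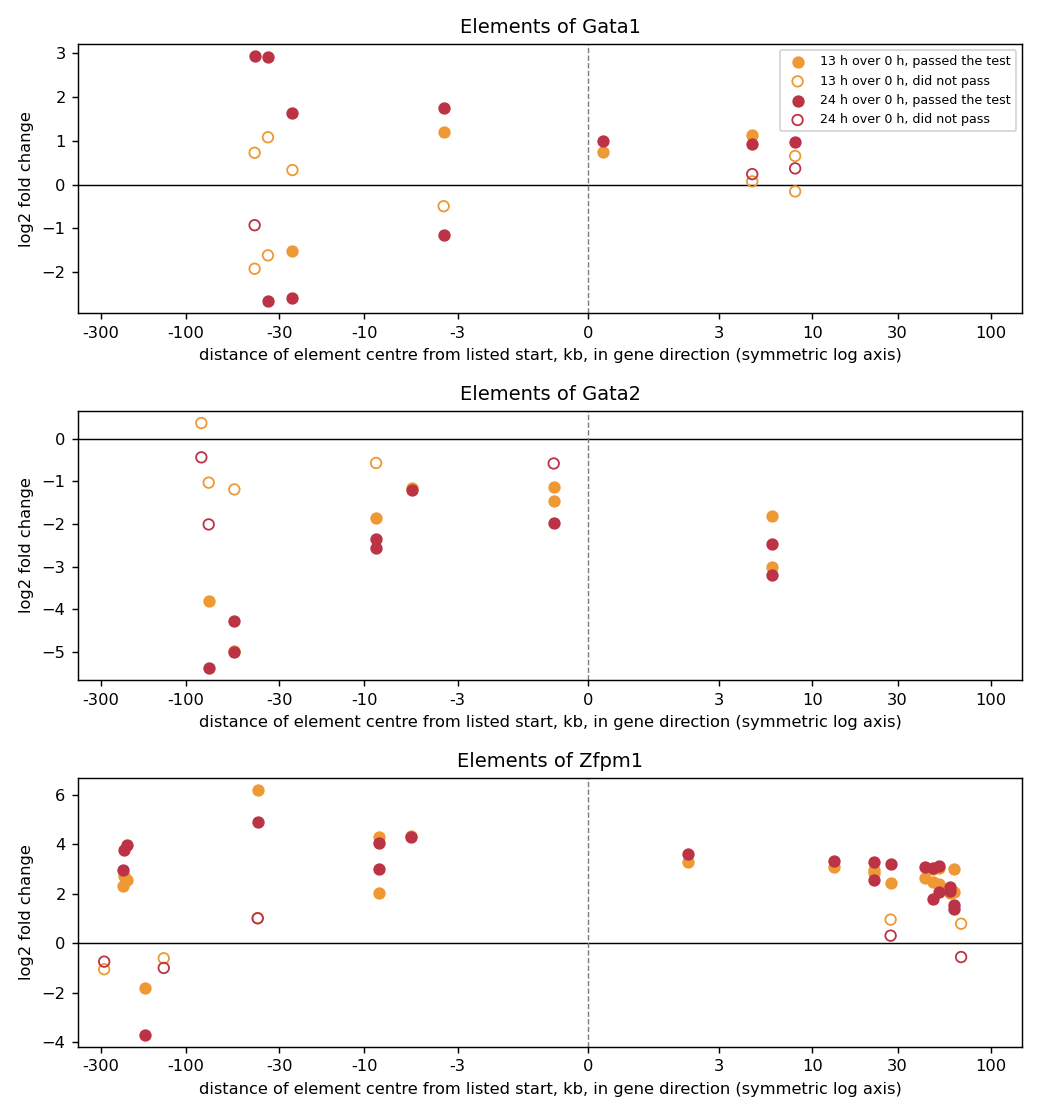
Log2 fold change of each tested element at 13 h over 0 h and at 24 h over 0 h against its distance from the listed start (kb, symmetric log axis, negative upstream in gene direction), with filled points for elements that passed the test. No Gata2 element passed as higher, 21 Zfpm1 elements passed as higher at each time, and Gata1 elements passed in both directions upstream of its start.

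**Figure D3:**
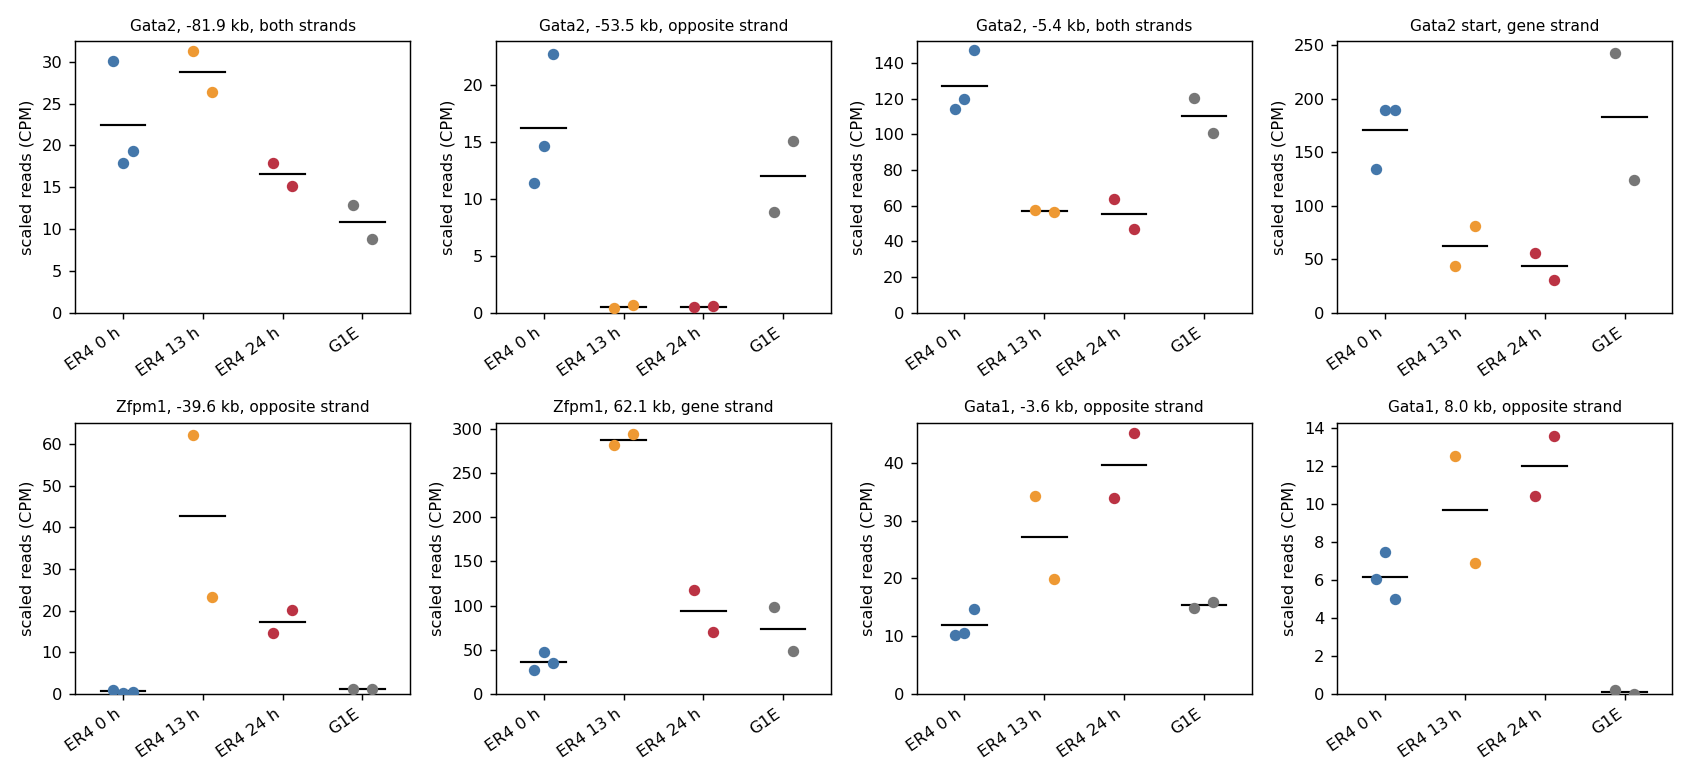
Scaled reads (CPM, linear axes from 0) of 8 elements in each library of G1E-ER4 at 0 h, 13 h and 24 h of estradiol and of G1E, with points for libraries and bars for group means. The Gata2 element 81.9 kb upstream keeps 15.1 to 31.3 CPM with estradiol while the opposite strand 53.5 kb upstream is under 1 CPM, and the Zfpm1 element 62.1 kb past the start is highest at 13 h.

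The 27 tested Zfpm1 elements gave 21 higher and 1 lower both at 13 h and at 24 h, with median log2 changes of 2.49 and 2.94. Over all tested elements 15.2% were higher at 13 h and 22.7% at 24 h, with medians of -0.13 and -0.18. The whole peak at the start was read at 70.6, 113 and 132 CPM at 0 h, 955 and 1114 CPM at 13 h, 1270.1 and 1258 CPM at 24 h, and 410 and 187 CPM in G1E. It rose 9.85-fold at 13 h (3.30 ± 0.32, adjusted p = 8.17e-06) and 12.04-fold at 24 h (3.59 ± 0.32, adjusted p = 1.82e-06). Like the gene body it was lower at 0 h than in G1E (-1.51 ± 0.31, adjusted p = 0.00363), a call lost without G1E replicate 1. Start reads per Zfpm1 gene-body read were 0.146, 0.149 and 0.136 at 0 h, 0.192 and 0.247 at 13 h, 0.194 and 0.183 at 24 h, and 0.133 and 0.141 in G1E, so the estradiol libraries were above all others. The start peak counts both strands and reaches 6 kb past the listed start, so it may share reads with the gene body. Inside the gene, all 6 elements on the gene strand or both strands rose at both times, by 2.39 to 3.09 at 13 h and 3.05 to 3.32 at 24 h. They held 25.3% to 28.3% as many reads as the gene-body count and may share those reads. Opposite-strand elements inside the gene, which cannot share reads with a gene body counted on its own strand, rose in 3 of 4 cases at each time, at levels of at most 2.56 CPM. Of these 6 calls, 5 were lost without single libraries, among them 13 h replicate 2 (at 22.1 and 51.4 kb) and 24 h replicate 1 (at 22.1, 47.5 and 51.4 kb).

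The largest relative increases at Zfpm1 were upstream of it. The opposite-strand element 39.6 kb upstream, at chr8:124765600-124767201, was read at 0.882, 0.280 and 0.548 CPM at 0 h, 62.0 and 23.3 CPM at 13 h, 14.6 and 20.03 CPM at 24 h, and 1.05 and 1.26 CPM in G1E. It rose 73.7-fold at 13 h (6.20 ± 0.48, adjusted p = 1.69e-06) and 29.9-fold at 24 h (4.90 ± 0.46, adjusted p = 3.03e-06), and the step between 13 h and 24 h did not pass the test (-1.30 ± 0.44, adjusted p = 0.0693). Without 13 h replicate 1, the higher of that pair, the 13 h change was 5.34. The gene strand of that peak stayed under 2 CPM and was not called. The whole peak 5.5 kb upstream, at chr8:124799700-124801401, was read at 1.47, 1.43 and 2.44 CPM at 0 h, 27.9 and 44.1 CPM at 13 h, 37.6 and 33.5 CPM at 24 h, and 1.57 and 1.99 CPM in G1E. It rose 20.01-fold at 13 h and 19.7-fold at 24 h (4.32 ± 0.31 and 4.30 ± 0.31), and the opposite strand 8.3 kb upstream rose 19.8-fold and 16.8-fold (4.31 ± 0.33 and 4.07 ± 0.32). Unlike the start, these 3 did not pass the test between 0 h and G1E (-0.98 ± 0.50, 0.04 ± 0.33 and 0.02 ± 0.36).

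Of 11 tested elements upstream of Zfpm1, 7 were higher and 1 lower at each time. The shares over all tested elements were 15.2% higher and 18.6% lower at 13 h, and 22.7% higher and 29.5% lower at 24 h. Far upstream, the whole peaks 224.5 kb and 221.9 kb and the gene strand 213.3 kb from the Zfpm1 start rose. Their changes were 2.32 to 2.73 at 13 h and 2.94 to 3.98 at 24 h. The gene strand at 213.3 kb had 14, 1 and 9 reads at 0 h, and its opposite strand was not tested. At 213.3 kb the changes were 3.35 and 4.76 without 0 h replicate 1. The only Zfpm1 element that fell, the whole peak 169.3 kb upstream at chr8:124635700-124637801, was at 2.27, 0.807 and 1.55 CPM at 0 h, 0.577 and 0.312 CPM at 13 h, 0.0534 and 0.186 CPM at 24 h, and 9.59 and 7.35 CPM in G1E. It fell at 13 h (-1.81 ± 0.54, adjusted p = 0.0188, a call lost without 13 h replicate 2) and at 24 h (-3.70 ± 0.65, adjusted p = 0.000371; -4.61 to -3.03 with single 24 h libraries left out). At 0 h it was already 5.48-fold lower than in G1E (-2.45 ± 0.46, adjusted p = 0.00193), a call that held under all 17 alternatives.

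Past the listed Zfpm1 start by 62.1 kb, in a stretch that the authors call intergenic, the gene-strand element at chr8:124866000-124870251 was the one element of the 3 loci that rose and then fell past the test. It was read at 27.2, 47.3 and 34.7 CPM at 0 h, 281 and 294 CPM at 13 h, 118 and 70.5 CPM at 24 h, and 98.7 and 48.6 CPM in G1E. It rose 7.90-fold at 13 h (2.98 ± 0.32, adjusted p = 2.28e-05) and was 3.05-fold lower at 24 h than at 13 h (-1.61 ± 0.35, adjusted p = 0.0123), a call lost without 13 h replicate 2 or 24 h replicate 2 and with title number as a block. The neighbouring gene-strand element at 58.6 kb stayed at 339 and 346 CPM at 24 h, beside 294 and 359 CPM at 13 h. All 5 elements past the gene were lower at 0 h than in G1E, by 1.02 to 2.71 on the log2 scale, beside 12.1% of all tested elements. None of the 5 calls held without G1E replicate 1.

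Gata1 elements moved in both directions, with 3 higher and 1 lower of 13 at 13 h and 7 higher and 3 lower at 24 h. Of all tested elements 33.8% were called at 13 h and 52.2% at 24 h. The whole peak at the start was read at 82.2, 52.7 and 97.8 CPM at 0 h, 150 and 109 CPM at 13 h, 145 and 162 CPM at 24 h, and 170 and 121 CPM in G1E. It rose 1.67-fold at 13 h (0.74 ± 0.25, adjusted p = 0.0358, a call lost without 0 h replicate 2 or 13 h replicate 1) and 1.98-fold at 24 h (0.99 ± 0.25, adjusted p = 0.00486). It was 1.88-fold lower at 0 h than in G1E (-0.91 ± 0.25, adjusted p = 0.0202), a call lost without 0 h replicate 2 or G1E replicate 1. The gene-strand elements inside Gata1, the deepest of the locus with means of 275 and 218 CPM at 0 h, were not called in any comparison. Start reads per gene-body read were 0.150, 0.116 and 0.180 at 0 h, 0.251 and 0.248 at 13 h, 0.242 and 0.215 at 24 h, and 0.357 and 0.269 in G1E. On this measure, which counts both strands at the start and may share reads with the gene body, the 0 h libraries were below all others.

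**Figure D4:**
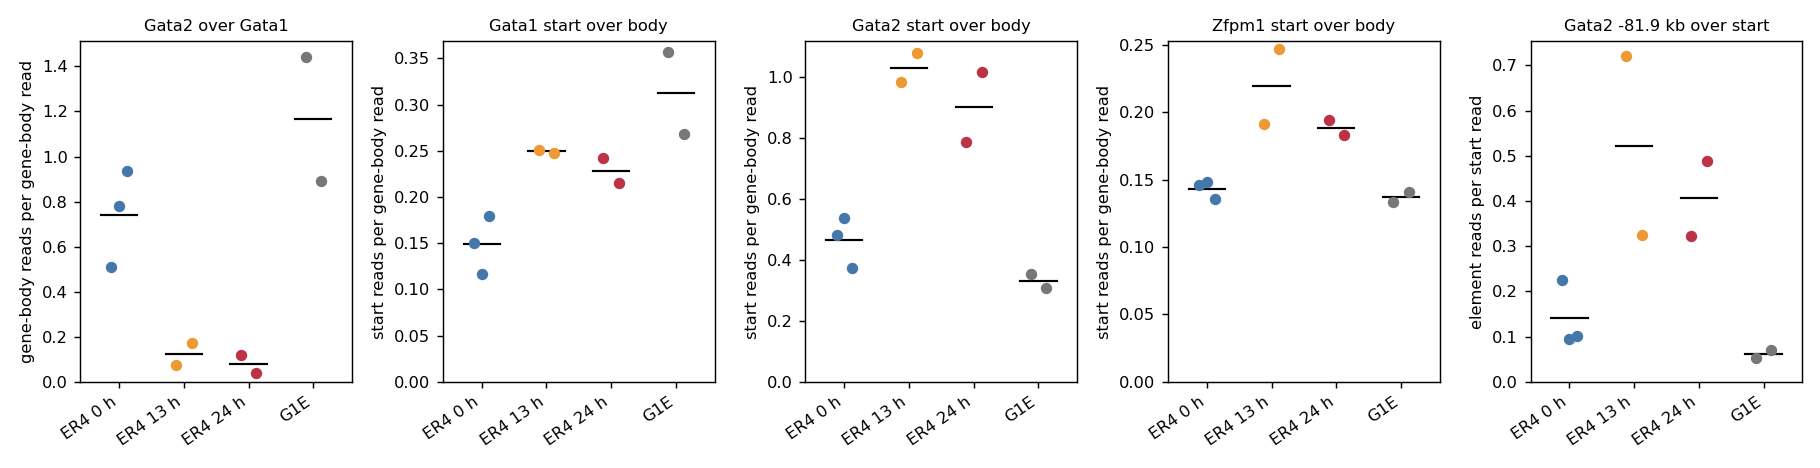
Ratios of reads within each library (linear axes from 0) for G1E-ER4 at 0 h, 13 h and 24 h of estradiol and for G1E, with points for libraries and bars for arithmetic means of the group. Gata2 reads per Gata1 read are 0.0404 to 0.171 with estradiol and 0.509 to 1.44 without, and Gata2 start reads per gene-body read are 0.788 to 1.08 with estradiol and 0.308 to 0.536 without. The start is counted on the gene strand at Gata2 and on both strands at Gata1 and Zfpm1, so start ratios are not comparable between genes.

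Upstream of Gata1 the rises were on the strand opposite to the gene. The opposite strand 3.6 kb upstream, at chrX:7547800-7549451, was read at 10.2, 10.6 and 14.8 CPM at 0 h, 34.2 and 19.96 CPM at 13 h, 34.02 and 45.2 CPM at 24 h, and 14.9 and 15.8 CPM in G1E. It rose 2.28-fold at 13 h (1.19 ± 0.27, adjusted p = 0.00398, a call lost without 13 h replicate 1) and 3.34-fold at 24 h (1.74 ± 0.27, adjusted p = 0.000134). The gene strand of that peak fell at 24 h (-1.16 ± 0.42, adjusted p = 0.0313), a call lost without replicate 1 of 0 h, either library of 24 h or replicate 2 of G1E, and with title number as a block, gene-body scaling or only the 2 groups compared.

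At 3 peaks 25.3 kb, 34.7 kb and 41.2 kb upstream of Gata1, the opposite strand rose at 24 h relative to 0 h by 1.64, 2.92 and 2.93 on the log2 scale, and none of the 3 was called at 13 h. At 41.2 kb the 24 h change was 2.14 without 24 h replicate 2. The one 25.3 kb upstream was at 6.84, 5.68 and 6.84 CPM at 0 h, 9.41 and 6.85 CPM at 13 h, 13.3 and 27.1 CPM at 24 h, and 9.73 and 6.62 CPM in G1E. On the gene strand the 2 nearer peaks fell at 24 h (-2.59 ± 0.41 and -2.66 ± 0.68), while their opposite strands rose. The difference between strands was not tested. These falls rest on few reads. At 25.3 kb the gene strand held 151, 129 and 160 reads at 0 h and 19 and 23 at 24 h. At 34.7 kb it held 44, 28 and 39 reads at 0 h and 5 and 5 at 24 h. The third, 41.2 kb upstream and inside Glod5, was at -0.93 ± 0.84 on the gene strand at 24 h (adjusted p = 0.371). Glod5 itself, a neighbour on that strand, had at most 0.315 CPM in any G1E-ER4 library.

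One antisense element separated the lines, and it was singled out after its values were seen. Inside Gata1, 8.0 kb from the start at chrX:7536050-7538101, the strand opposite to the gene was read at 6.04, 7.45 and 5.01 CPM at 0 h, 12.5 and 6.88 CPM at 13 h, 10.4 and 13.6 CPM at 24 h, and 0.224 and 0 CPM in G1E, which is 10 and 0 reads. All G1E-ER4 libraries lay far above both G1E libraries, and the fit gave 38.7-fold more at 0 h than in G1E (5.27 ± 0.59, adjusted p = 2.84e-05), a call that held under all 17 alternatives. The size of the change was 4.46 with title number as a block and 10.77 without G1E replicate 1. The gene-strand element of the same peak differed by 0.39 ± 0.20 (adjusted p = 0.21). The other antisense element inside Gata1, 4.6 kb from the start, was 1.67-fold higher at 0 h than in G1E (0.74 ± 0.23, adjusted p = 0.0373), a call lost without replicate 1 or 2 of 0 h or either library of G1E, and with library totals, title number as a block or gene-body scaling. The G1E-ER4 line carries the fusion transgene, the G1E line has a disrupted Gata1, and the position of either relative to this element is not given in the sources used here.

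Among related genes, Gata3 fell at 13 h (-0.89 ± 0.31, adjusted p = 0.0435) and at 24 h (-1.20 ± 0.32, adjusted p = 0.00807), and Zfpm2, which encodes FOG2, was under 0.5 CPM in every library and was not called. Gata4, Gata5, Gata6 and Trps1 did not pass the filter on low counts. The corepressor genes whose proteins FOG1 recruits were also counted: of 15 NuRD and CtBP genes 0 were higher and 7 lower at 13 h, and 4 were higher and 9 lower at 24 h, with list medians of -0.24 and -0.48 beside -0.02 and -0.07 over all genes. Over all genes tested, 20.1% were higher and 20.9% lower at 13 h, and 29% were higher and 30.7% lower at 24 h. The histone-binding subunit Rbbp7 (-1.98 ± 0.14), the corepressor Ctbp2 (-1.72 ± 0.14), the methyl-CpG-binding family member Mbd3 (-1.50 ± 0.18) and the NuRD subunit Mta1 (-1.49 ± 0.18) fell most at 24 h. Genes for other subunits rose at 24 h, among them Gatad2b (1.17 ± 0.14), Mbd2 (1.10 ± 0.12) and Mta3 (0.97 ± 0.13). Among all called genes at 24 h, 48.6% were higher, and 30.8% were with scaling by library totals.

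Of 17 genes for DNA-bound partners and coactivators of GATA1, 5 were higher and 5 lower at 13 h, and 8 were higher and 4 lower at 24 h, where 41% and 59.7% of all genes were called. Lyl1, a basic helix-loop-helix factor of progenitors, fell most (-5.46 ± 0.22), while the acetyltransferases Crebbp (1.40 ± 0.11) and Ep300 (1.02 ± 0.12) and the red cell factor Klf1 (0.98 ± 0.20) rose. Of 9 textbook genes repressed by GATA1, Gata2 among them, 0 were higher and 6 lower at 13 h and 0 were higher and 8 lower at 24 h, and of 14 tested textbook genes activated by GATA1, Gata1 and Zfpm1 among them, 11 were higher at 13 h and 12 at 24 h, with 0 lower. For all genes tested the shares were 20.1% higher and 20.9% lower at 13 h, and 29% higher and 30.7% lower at 24 h. Among the repressed textbook genes was Spi1, which encodes the myeloid factor PU.1. It was at 0.57 ± 0.26 at 24 h and did not pass the test (adjusted p = 0.0801). These lists were chosen with results of these data known and are no independent evidence of a direction.

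Genes next to the 3 members were read as well, beside 41% of all genes called at 13 h and 59.7% at 24 h. Around Zfpm1, 0 of 6 tested neighbours were called at 13 h, and at 24 h Rnf166 was 0.56 ± 0.17 higher and Cyba, a subunit of the phagocyte oxidase, lower (-1.37 ± 0.42). Around Gata2, of 4 tested neighbours the vesicle GTPase Rab7 rose (1.02 ± 0.12 at 24 h) and Rpn1 (-1.37 ± 0.17), Ruvbl1 (-1.21 ± 0.19) and Eefsec (-0.58 ± 0.14) fell at 24 h. Around Gata1, of 7 tested neighbours Was (-1.13 ± 0.19) and the histone methyltransferase gene Suv39h1 (-1.05 ± 0.14) fell at 24 h and 0 rose. At 13 h the same pair was at -0.55 ± 0.18 and -0.50 ± 0.13 and Glod5 at -1.62 ± 0.58, all 3 called lower.

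Markers of other cell types that also use these factors were read in the same libraries. The 10 mast cell and basophil markers, a lineage in which GATA2 is active, summed to 37.1 to 85.4 CPM at 0 h, 2.24 to 2.37 CPM at 13 h, 0.830 to 1.03 CPM at 24 h and 30.8 to 54.9 CPM in G1E. Of the 5 that were tested, 4 fell at 13 h and 5 at 24 h, while Mcpt4 and Mcpt8 were at 0 throughout. Over all genes tested, 20.9% were lower at 13 h and 30.7% at 24 h. Ms4a2 and Fcer1a, however, passed the filter on low counts only through libraries without estradiol. Their falls were thus largely fixed in advance, so the counts are not comparable with these shares. The protease gene Cpa3 made up most of the sum without estradiol and Hdc, the enzyme of histamine synthesis, with it. At 0 h relative to G1E 3 of the 5 were higher, beside 7.88% of all genes tested. They were Ms4a2 (4.37 ± 0.71), Fcer1a (4.20 ± 1.18) and Hdc (1.199 ± 0.34), and Gata2 was not called there. Fcer1a had only 9, 5 and 38 reads at 0 h and 1 and 0 reads in G1E (edgeR adjusted p = 0.0444). Ms4a2 had 19 and 4 reads in G1E. Both genes passed the filter on low counts only because of the 0 h libraries. Their direction here was thus largely fixed in advance, and 3 of 5 is not comparable with the share over all genes. Megakaryocyte markers, of a lineage that needs GATA1 and FOG1, summed to 38.7 to 54.9 CPM at 0 h, 140.5 to 146 CPM at 13 h, 92.7 to 150.5 CPM at 24 h and 60.6 to 67.3 CPM in G1E. Of the 6 tested, 3 rose at each time, beside 20.1% of all genes tested at 13 h and 29% at 24 h. Granulocyte and monocyte markers stayed at or below 1.29 CPM in sum in every library. The part of these markers in the changes of Gata2 and Zfpm1 was not tested.

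The genes whose levels ran most like each member across the 9 libraries, by Pearson's r of log2 CPM over 10592 candidates, are given as a description, since all points share the groups and library scaling. For Gata2 they were Igf2bp1 (r = 0.988), Slc38a2 (0.986), Nrros (0.984) and Zfp773 (0.983). Igf2bp1, which encodes an RNA-binding protein of fetal cells, was at 327 ± 13.5 CPM at 0 h (SD, n = 3), 123 ± 32.1 CPM at 13 h (n = 2), 113 ± 35.6 CPM at 24 h (n = 2) and 391 ± 32.4 CPM in G1E (n = 2). For Zfpm1 they included Sec14l2 (0.978), the kinase gene Mark3 (0.978) and Ccdc186 (0.975). Mark3 was at 332 ± 30.5 CPM at 0 h, 633 ± 11.2 CPM at 13 h, 818 ± 21.5 CPM at 24 h and 429.6 ± 76.3 CPM in G1E. For Gata1 they were the peroxisome gene Pex16 (0.972), Vps37c (0.956), Cstf2t (0.955) and Ascc3 (0.953).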

How the data were processed

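PRO-seq read counts per gene body and per dREG element were taken as deposited by the authors, with no normalization per the file headers. The authors' peak table also gives each peak's position along a gene in percent. Per the submitters' processing notes, reads were mapped to mm9 with BWA, whose version, like the counting tool and its use of strand, is not given in the sources used here. Each table was scaled by TMM and filtered by expression at the default setting, which kept 13825 genes and 35158 elements, and tested with edgeR 4.0.16 (R 4.3.3, robust quasi-likelihood, a mean for each of 4 groups, 5 residual degrees of freedom). P-values were Benjamini-Hochberg adjusted over each table, with a threshold of 0.05, and each SE is the absolute log2 change over the root of F. CPM use these factors. The code was tested on simulated data.

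The members and lists were chosen with earlier results of these data known. Named elements are the 3 deepest, the 3 largest rises and the 3 largest falls at 24 h per locus and those that turn direction. Others named here were chosen after their values were seen. Some genes that the rule for likeness or the lists name are not reported here. Alternatives were other scalings (RLE, library totals, gene-body factors for elements), no filter, DESeq2 1.42.0, blocks by replicate number or title number, 2 groups only, and each library left out. Promoters are RefSeq's. Intervals cover counting error only.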

Additional observations from a re-analysis of the deposited data

Results flagged for a closer look

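At 6 elements the effect of estradiol at 24 h differed from that at 13 h by the edgeR test of the difference itself. They are 6 of 52 tested elements, where 13.1% of all elements were called, a share above theirs. The comparisons share the 0 h libraries, and groups of 2 and 3 libraries were too small for a test of single outlying libraries.

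Upstream of Gata2, the gene strand 53.5 kb away changed by a further -3.08 ± 0.62 on the log2 scale at 24 h (adjusted p = 0.0078), a call lost without 24 h replicate 2, and the gene strand 8.6 kb away by -2.0 ± 0.44 (adjusted p = 0.0131), a call lost without 13 h replicate 2 or 24 h replicate 2. In both cases the opposite strand of the peak was not called (-0.03 ± 0.50, adjusted p = 0.989, and -0.49 ± 0.25, adjusted p = 0.197). At 53.5 kb that strand held only 13 and 27 reads in the 13 h libraries, which left little room for a further fall. The difference between strands was not tested. Past Zfpm1, the gene strand 62.1 kb from the start changed by -1.61 ± 0.35 (adjusted p = 0.0123) after its rise at 13 h, a call lost without 13 h replicate 2 or 24 h replicate 2.

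Upstream of Gata1, the opposite strand rose between 13 h and 24 h at 25.3 kb (1.31 ± 0.36, adjusted p = 0.0298), at 34.7 kb (1.84 ± 0.47, adjusted p = 0.0218) and at 41.2 kb (2.20 ± 0.61, adjusted p = 0.0313). The element at 34.7 kb was read at 3.66 and 8.19 CPM at 24 h, against 2.11 and 1.198 CPM at 13 h, and the one at 41.2 kb at 3.05 and 8.84 CPM at 24 h, against 1.65 and 0.935 CPM at 13 h. Each of these 3 calls was lost without 13 h replicate 2 or 24 h replicate 2, and those at 25.3 kb and 41.2 kb also without 13 h replicate 1 and with gene-body scaling, and the one at 25.3 kb with library totals. With title number as a block, which sets the 13 h and 24 h libraries in different blocks, 5 of the 6 calls were lost, all but that 53.5 kb upstream of Gata2.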

How the results depend on the processing

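The calls of Gata2 and Zfpm1 at 13 h and at 24 h relative to 0 h held under all 16 alternatives, with adjusted p up to 0.0454 and 0.0238 for Gata2 and up to 0.00775 and 0.00281 for Zfpm1. Gata1 at 24 h relative to 0 h was 0.093 (adjusted p = 0.677) with library totals and 0.40 to 0.64 with single libraries left out. Zfpm1 at 0 h relative to G1E was -1.61 without the expression filter (adjusted p = 0.104) and -2.20 to -0.69 with single libraries left out. Uncalled differences that changed sign were Gata1 at 24 h relative to 13 h with library totals (-0.0053), Gata1 at 0 h relative to G1E with title number as a block (-0.11), Gata2 at 24 h relative to 13 h with single libraries left out (-1.26 to 0.30; 0.20 without 13 h replicate 2 and 0.30 without 24 h replicate 2), Gata2 at 0 h relative to G1E (-0.99 to 0.083; 0.083 without G1E replicate 1), and the ratio of Gata2 to Gata1 at 24 h relative to 13 h (-1.48 to 0.065; 0.065 without 24 h replicate 2).

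The labels name no shared batch for equal replicate numbers and the groups share only 2, so libraries were not taken as pairs. Deviations of same-numbered libraries correlated across genes at 0.459 and 0.444 for 13 h and 0 h, which also share number series in their titles, and at -0.144 to 0.0631 in the other comparisons. The replicate block left 1552 genes between 0 h and G1E in place of 2415 and 5 lower elements of the 3 loci, in place of 3, between 24 h and 13 h. The title number block left 820 and, between 24 h and 13 h, 59 genes in place of 3349, 1016 elements in place of 4605, and 1 higher and 1 lower element of the 3 loci in place of 3 each. With only the 2 groups compared, 1583 genes and 5 higher elements of the loci were called between 24 h and 13 h. DESeq2 called 5 lower there. Gene-body scaling left 2452 elements there, 1 higher at the loci, and 1 higher at 0 h relative to G1E in place of 3. With single libraries left out, called genes ranged from 1145 to 2522 between 0 h and G1E and from 1233 to 3356 between 24 h and 13 h. Called elements ranged from 7624 to 11963 at 13 h relative to 0 h (11881 with all libraries), from 651 to 5747 between 24 h and 13 h, and from 2420 to 7306 between 0 h and G1E (6768 with all). At the loci, 0 to 3 were higher and 0 to 5 lower at 24 h relative to 13 h, and 1 to 3 higher and 2 to 17 lower at 0 h relative to G1E. The cause of these shifts was not tested, and fewer libraries also mean fewer degrees of freedom.

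None of the 100 called element results changed direction. Of their values under an alternative, 15 of 577 at 13 h, 30 of 697 at 24 h, 21 of 102 between 24 h and 13 h and 46 of 323 between 0 h and G1E lost the call. Depth limits the elements near 0 CPM, where a few reads set the value.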
